A study of Arabidopsis thaliana with 12 samples.

Results

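The libraries described here are 4 of the 12 root RNA libraries of a study of wild type and *clf* Arabidopsis seedlings, 1 from each of the 4 groups, and they are set against the other 8. They were chosen from measured values, as the library of each group with the lowest correlation to the other 2 of its group, and because the transcripts of circadian clock genes were shifted in them. They are replicate 1 of the wild type on +Fe medium and again replicate 1 on -Fe medium, and, of *clf*, replicate 2 on +Fe and replicate 1 on -Fe medium. They are called the off-phase libraries after those clock genes. The name refers to transcript levels only, since the sources used here do not give the hour at which the roots were harvested. Because these libraries were picked by their expression, every difference between them and the other 8 is a description and carries no test.

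All plants were *Arabidopsis thaliana* of the Col-0 background. The wild type is Col-0 itself, and *clf* is the loss-of-function insertion allele *clf-29* of *CURLY LEAF*, a histone methyltransferase gene of Polycomb repressive complex 2 (PRC2). Seedlings grew for 12 days on B5 medium and for 3 more days on iron sufficient (+Fe) medium or on iron deficient (-Fe) medium that held ferrozine, an iron chelator, in a cycle of 16 h of light and 8 h of dark at 22°C, and RNA of whole roots was sequenced with 3 libraries in each group. The mutant is represented by this 1 insertion line, and the labels do not say how many plants were pooled in a library or which libraries were harvested together.

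The circadian clock is a loop of transcription factors that repress and activate one another, so that their transcripts peak at set times of the day. *CCA1* and *LHY* peak around dawn and repress genes of the evening, the *PRR* genes follow one after the other through the day, and *TOC1*, *GI* and the evening complex of *ELF3*, *ELF4* and *LUX* peak towards dusk and repress the morning genes in turn. In roots, as in leaves, many genes for transport, growth and stress responses cycle under this control.

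By the measure that chose the libraries, the mean Pearson correlation of log2 CPM with the other 2 libraries of the group, the off-phase libraries stood at 0.934 in wild type +Fe, 0.934 in wild type -Fe, 0.950 in *clf* +Fe and 0.953 in *clf* -Fe. CPM is the read count of a gene relative to the size of its library, in the usual unit of that name and with libraries scaled by TMM factors. The other 8 libraries ranged from 0.959 to 0.970, so that *clf* -Fe replicate 1 at 0.953 was the member just inside the choice and wild type -Fe replicate 2 at 0.959 the library just outside it. The same 4 libraries had the lowest value of their groups with Spearman correlation, without all listed genes and with only genes of at least 10 CPM. Their total counts, from 21002002 to 25642058, lay within the range of the other 8 (18658428 to 28281420), and genes of the organelle genomes took at most 0.169% of the counts in any of the 12 libraries. The 50 highest genes took 10.7 to 14.0% of the counts in the off-phase libraries and 12.8 to 15.1% in the others. Transcripts of *CLF* itself followed the genotype labels in the off-phase libraries as in the rest, at 49.7 and 55.1 CPM in the wild type pair and 10.3 and 15.4 CPM in the *clf* pair. The log2 fold change of *CLF* between the genotypes was -1.84 (SE 0.12, adjusted p = 5.2e-05, edgeR's quasi-likelihood test) over the 12 libraries.

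When the mean of each group was removed from log2 CPM, the first principal component took 52.5% of the remaining variance. On it the off-phase libraries scored 47.1 to 71.6, and the other 8 scored -39.2 to -19.6. The second component, with 15.4%, separated the off-phase libraries by genotype, since both wild type libraries scored below 0 and both *clf* libraries above 0. The plot of component scores shows the off-phase libraries as a wild type pair and a *clf* pair on the right side.

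**Figure D1:**
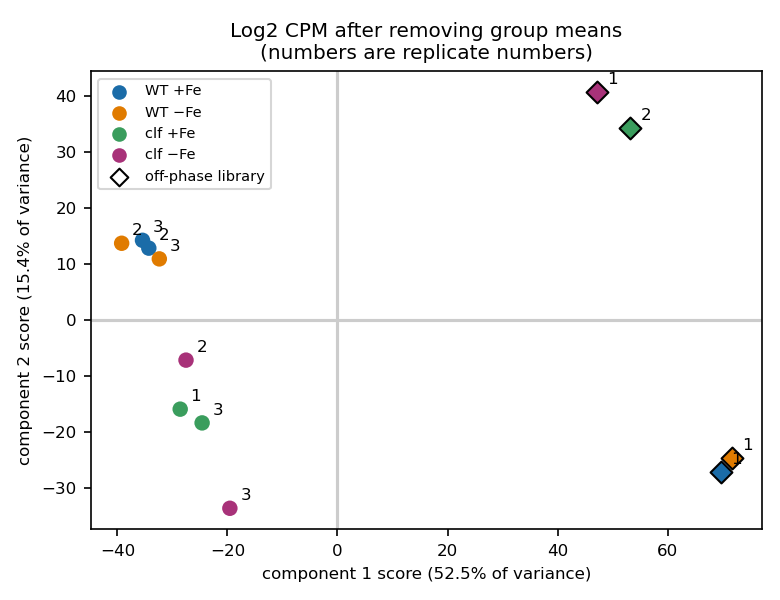
Scores of the 12 libraries on the first (x axis) and second (y axis) principal components of log2 CPM after group means were removed, with colours for the groups, diamonds for the off-phase libraries and circles for the others. The off-phase libraries lie at 47.1 to 71.6 on the first component, and the other 8 between -39.2 and -19.6.

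For each of the 20168 genes that passed the filter on low counts, the difference was taken as log2 CPM of the off-phase library minus the mean of the other 2 libraries of its group, which gives 4 values per gene, summarised as mean ± SD (n = 4). The difference was at least 1 in size for 16.4% of the genes in wild type +Fe, 16.5% in wild type -Fe, 11.3% in *clf* +Fe and 12.3% in *clf* -Fe. Between the other 2 libraries of a group, only 2.31 to 5.35% of the genes differed by that much. A gene is called displaced here when its off-phase library lay outside both other libraries of the group, in the same direction, in all 4 groups and the mean difference was at least 1. By this rule 498 genes were displaced higher (2.47% of the genes) and 750 lower (3.72%), together 6.19%, and for 1570 genes (7.78%) the 4 off-phase libraries did not overlap with the other 8 in CPM at all. These shares are the background against which the counts of each gene list are set below, and since the same expression chose the libraries nothing further is read from them. The filter could also keep a gene through the off-phase libraries alone, as for AT1G73510 below. With at least 10 reads required in every library, 296 genes were displaced higher and 556 lower. The differences of the 4 groups, which share no library, were correlated across the 20168 genes with Pearson's r between 0.338 (wild type +Fe with *clf* -Fe) and 0.616 (wild type +Fe with wild type -Fe), a description over genes that are not independent and that share the base composition and length of their transcripts. Spearman's rho between the difference and gene length was between -0.22 and 0.19 in the 4 groups, lowest in *clf* +Fe and highest in *clf* -Fe.

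The clock genes divided by the time of day at which they are known to peak. Of 42 listed clock genes 41 passed the filter, all but *COL1*, and 12 of these were displaced higher and 10 lower, against 2.47% and 3.72% of all genes. For 25 of the 41 the off-phase libraries did not overlap with the other 8. Of the 12 morning genes, 7 were displaced lower and 0 higher, and of the 10 evening genes 5 were displaced higher and 0 lower. The median difference of the morning list was -1.12 in wild type +Fe, -1.36 in wild type -Fe, -1.52 in *clf* +Fe and -1.82 in *clf* -Fe, and that of the evening list 0.58, 0.49, 1.09 and 1.09 in the same order, while the median over all genes was between -0.03 and 0.03.

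*LHY*, a MYB-related repressor at the centre of the morning loop, showed the largest change of a clock gene. It stood at 6.62, 5.38, 3.97 and 3.14 CPM in the off-phase libraries of wild type +Fe, wild type -Fe, *clf* +Fe and *clf* -Fe, and at 58.9 and 60.4, 100.5 and 91.5, 76.8 and 59.1, and 93.3 and 81.7 CPM in the other libraries of those groups. All 4 off-phase libraries were below all of the others, and the mean difference of -4.02 ± 0.66 (SD, n = 4) is a 16.3-fold lower level. Its partner *CCA1* stood at 6.67, 4.57, 2.97 and 4.87 CPM in the off-phase libraries, in the same order of groups, and at 26.7 to 48.2 CPM (median 36.5) in the other 8. The sets again did not overlap, with a mean difference of -2.96 ± 0.60.

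The other displaced morning genes encode activators of the clock. *RVE8*, a relative of *CCA1* that activates evening genes, had a mean difference of -2.11 ± 0.49, from 5.84 to 10.2 CPM in the other 8 libraries to 1.46 to 2.91 CPM in the off-phase libraries. *LNK1*, *LNK2*, *LNK3* and *LNK4*, whose proteins act as coactivators with RVE8, differed by -1.24 ± 0.37, -2.21 ± 0.46, -2.29 ± 0.63 and -1.65 ± 0.34. None of these genes overlapped between the sets. The remaining *REVEILLE* genes of the list behaved differently: *RVE1* differed by -0.75 ± 0.26 without overlap, *RVE4* by -0.55 ± 0.41, *RVE2* by -0.04 ± 0.12 and AT5G52660 by 0.02 ± 0.07, and *RVE7* had a positive difference of 0.40 ± 0.29.

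The 4 *PRR* genes, repressors that follow one another from morning to evening, split in that order. *PRR9*, the earliest, was displaced lower, with 4.94, 4.01, 3.19 and 5.0 CPM in the off-phase libraries and 7.53 to 15.1 CPM in the other 8 (mean difference -1.41 ± 0.48). *PRR7*, the next, was not displaced, and its differences were -0.15 and -0.03 in wild type but 0.85 and 0.91 in *clf*. A part of genotype in this cannot be told apart from a different size of shift in the libraries chosen. Over the 12 libraries the log2 fold change of *PRR7* between the genotypes was 0.11 (SE 0.20, adjusted p = 0.88, edgeR's quasi-likelihood test). *PRR5* was displaced higher, with 31.4, 23.9, 37.2 and 43.9 CPM against 4.87 to 14.8 CPM (2.00 ± 0.67), and so was *PRR3* (1.71 ± 1.2), whose sets overlapped.

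Among the evening genes, *FKF1*, which encodes a blue light receptor with an F-box, had the largest difference. It stood at 20.5, 12.9, 24.8 and 26 CPM in the off-phase libraries and at 1.5 to 2.72 CPM in the other 8, a mean difference of 3.23 ± 0.56, or 9.40-fold higher. Both *ELF4* and *LUX*, of the evening complex, were displaced in the same direction. *ELF4* stood at 23.4, 48.4, 46.3 and 76.5 CPM against 4.78 to 11.1 CPM (2.45 ± 0.88), and *LUX* at 47.6, 50.7, 65.3 and 70.1 CPM against 14.5 to 21.0 CPM (1.74 ± 0.39). The close relative of *LUX*, *BOA*, differed by 1.94 ± 1.14 and *TOC1* by 1.18 ± 0.35, both without overlap. *TOC1* had 85.7 and 91.7 CPM in the wild type off-phase libraries and 126 and 122 CPM in those of *clf*, against 42.6 to 50.7 CPM in the other 8. *ELF3*, the remaining member of the complex, differed by 0.37 ± 0.32, and *GI* by 0.54 ± 0.20, and neither reached a difference of 1. The genes *ZTL* (-0.20 ± 0.27) and *LKP2* (-0.19 ± 0.31), relatives of *FKF1* whose transcripts are known to cycle little, had small mean differences, as did *CHE* (0.02 ± 0.56).

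**Figure D2:**
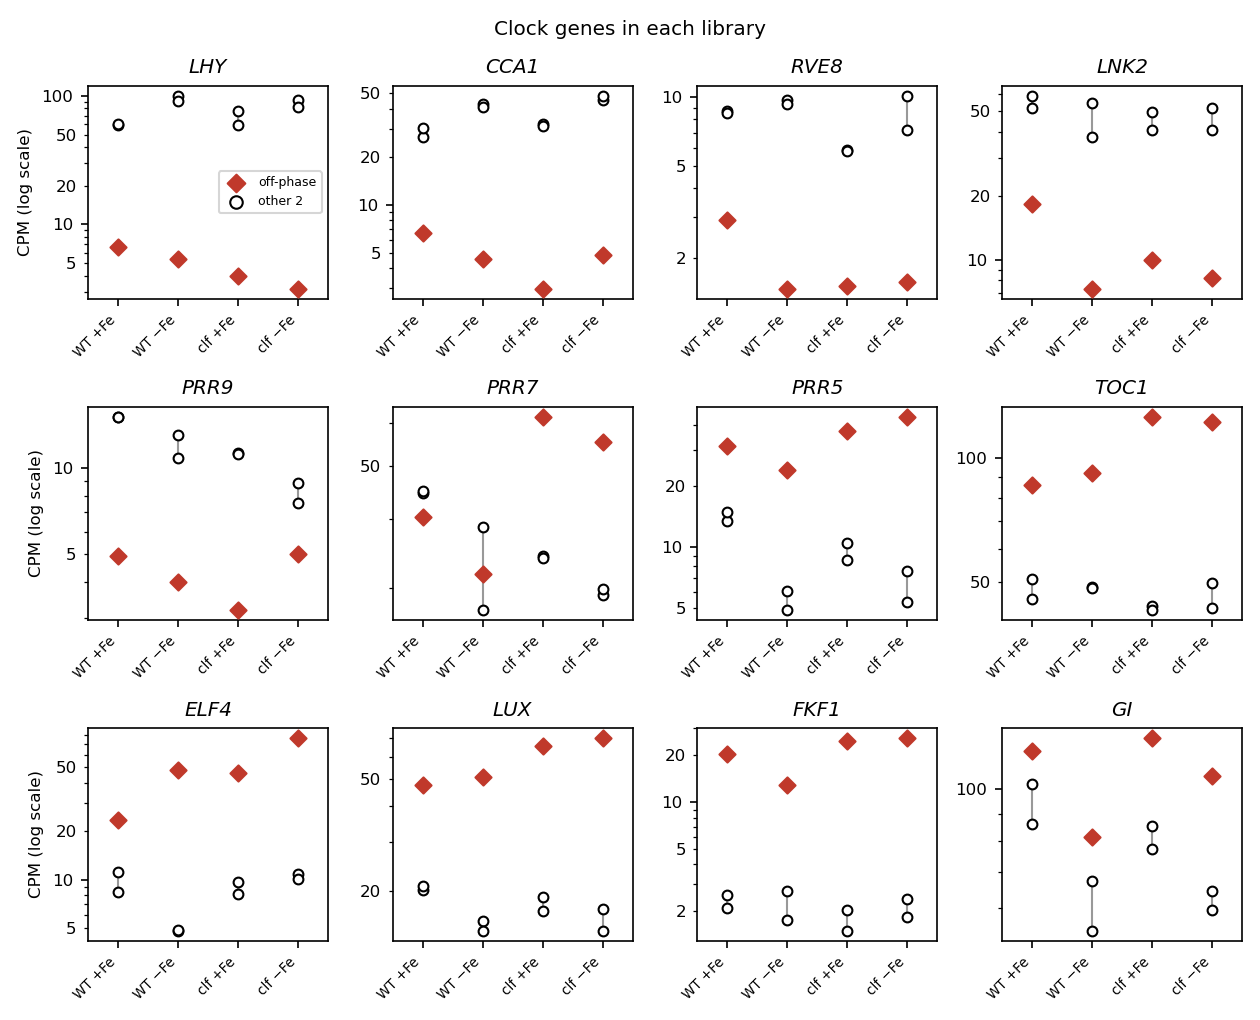
CPM (y axis, log scale) of 12 clock genes in each library by group (x axis), with the off-phase library as a red diamond and the other 2 of the group as open circles joined by a line. *LHY*, *CCA1*, *RVE8*, *LNK2* and *PRR9* are lower and *PRR5*, *TOC1*, *ELF4*, *LUX* and *FKF1* higher in all 4 off-phase libraries than in the other 8, whereas *PRR7* is higher only in those of *clf* and *GI* overlaps.

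Of the 15 clock output genes that passed the filter, 5 were displaced higher and 2 lower. The list median was 0.60 in wild type +Fe, 1.26 in wild type -Fe and 1.29 in *clf* +Fe, but -0.28 in *clf* -Fe. The difference was largest for AT4G33980, at 7.55, 11.9, 28.2 and 21.2 CPM in the off-phase libraries and 0.956 to 2.69 CPM in the other 8 (3.41 ± 1.33). *COR27*, a cold-regulated gene that acts in the clock, differed by 2.48 ± 0.51, *JMJ30*, a histone demethylase gene expressed in the evening, by 2.02 ± 0.41, and *COL9*, a gene of the CONSTANS-like family, by 1.90 ± 0.48. *GRP7*, which encodes an RNA-binding protein that cycles with an evening peak, stood at 1710 CPM on average in the off-phase libraries and 591 CPM in the others (1.52 ± 0.38). *BBX19* (-1.72 ± 0.36) and *CDF3* (-1.09 ± 0.20) were the 2 output genes displaced lower. *PIF4*, a growth-promoting bHLH gene, was not displaced because the groups disagreed. Its differences were 2.34, 2.00 and 1.77 in wild type +Fe, wild type -Fe and *clf* +Fe but -1.73 in *clf* -Fe, where the off-phase library had 0 reads and the other 2 had 0.184 and 0.227 CPM.

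CCA1 and LHY are known to bind the evening element, AAAATATCT, in the promoters of genes that peak late in the day. The 500 bases before the annotated start of 19944 of the tested genes were read from the RefSeq annotation of TAIR10.1 and searched on both strands. The evening element was present before 13.1% of the genes displaced higher (64 of 490 with a promoter), before 2.28% of those displaced lower (17 of 746) and before 4.46% of all genes. A further pair of motifs was searched in the same way. The CCA1 binding site, AAAAATCT, which neither contains the evening element nor is contained in it, though copies of both may overlap, was present before 11.4% of the higher, 12.1% of the lower and 12.4% of all genes. The G-box, CACGTG, a site of bHLH and bZIP factors, was present before 14.3%, 7.91% and 10.1%. Among the clock genes the evening element lay before 8 of the 12 displaced higher, 0 of the 10 displaced lower and 3 of the 19 not displaced. A match describes the letters of the promoter and does not show that a factor bound there, and the shares were not tested. Shifted clock genes were part of the choice of the libraries, so the split among clock genes follows from values that this choice used. The displaced clock genes are also counted in the shares of all displaced genes.

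**Figure D3:**
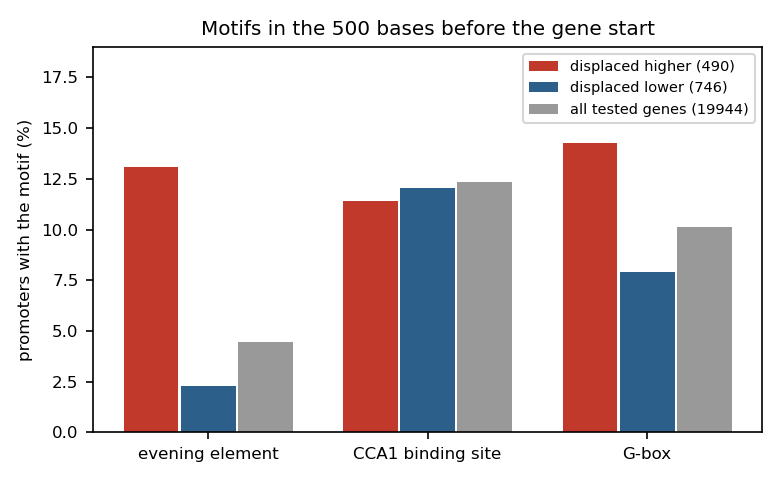
Share of promoters (y axis, %) that hold each of 3 motifs (x axis) among 490 genes displaced higher, 746 displaced lower and all 19944 tested genes with a promoter. The evening element bars stand at 13.1%, 2.28% and 4.46%, while the CCA1 binding site bars stand between 11.4 and 12.4%.

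The evening elements of the 8 clock genes displaced higher that hold one are shown as the sequences behind these counts. The other 4 displaced higher, *ELF4*, *PRR3*, *JMJ30* and AT4G33980, hold none in the window. Each stretch reads 5′ to 3′ in the direction of its gene, with the element in capitals, as AAAATATCT on the strand of the gene or AGATATTTT where it lies on the opposite strand, and up to 20 bases on each side. They were read at chr1:25508246-25508294 (*FKF1*, plus strand), chr5:8358705-8358753 (*PRR5*, minus strand), chr5:24674792-24674840 (*TOC1*, plus strand), chr3:17182969-17183017 (*LUX*, plus strand), chr5:24003825-24003873 (*BOA*, plus strand), chr3:2441144-2441192 (*COL9*, plus strand), chr2:9266560-9266608 (*GRP7*, minus strand) and chr5:17199911-17199950 (*COR27*, minus strand) of TAIR10.1. The first base of the element lies 373, 187, 151, 53, 43, 401, 31 and 20 bases before the start of the gene in the same order. *FKF1*, *PRR5*, *COL9*, *GRP7* and *COR27* hold further copies in the window, *GRP7* 3 in all.
FKF1: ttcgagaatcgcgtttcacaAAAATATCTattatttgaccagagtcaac
PRR5: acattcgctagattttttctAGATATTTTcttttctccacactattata
TOC1: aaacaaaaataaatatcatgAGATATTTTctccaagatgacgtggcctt
LUX: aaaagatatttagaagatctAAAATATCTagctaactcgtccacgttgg
BOA: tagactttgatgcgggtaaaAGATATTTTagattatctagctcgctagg
COL9: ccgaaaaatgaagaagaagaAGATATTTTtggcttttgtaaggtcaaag
GRP7: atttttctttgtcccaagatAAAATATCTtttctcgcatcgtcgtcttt
COR27: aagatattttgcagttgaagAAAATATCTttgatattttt

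The 12 genes with the largest differences among those displaced higher held no listed clock gene, and several are known to respond to wounding or cold. *RRTF1*, an ERF transcription factor gene that responds to oxidative stress and wounding, led the genes displaced higher. It stood at 99.9, 26.5, 137 and 37.1 CPM in the off-phase libraries of wild type +Fe, wild type -Fe, *clf* +Fe and *clf* -Fe and at 0 to 1.47 CPM (median 0.0992) in the other 8. The mean difference of 8.19 ± 2.27 depends on the prior count of 2, since several of those libraries had no read. *ORA47*, an ERF gene that promotes the synthesis of jasmonate, stood at 77.0, 31.5, 197 and 47.5 CPM against 0.460 to 2.49 CPM (6.58 ± 1.37), and *DDF1*, a gene of the DREB family, at 28.4, 14.1, 22.2 and 5.60 CPM against 0 to 0.322 CPM. All 4 off-phase libraries were above all of the others for each of the 3 genes. AT1G73510 had 5.91, 1.38, 13.4 and 3.67 CPM in the off-phase libraries and no read in the other 8. It thus passed the filter on low counts only through the off-phase libraries, so its place among the 12 follows from their choice.

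*LOX3*, a lipoxygenase gene of jasmonate synthesis, is a further gene of this order, with 29.0, 5.55, 15.5 and 2.34 CPM against 0 to 0.248 CPM. The remaining genes of the 12 ranked under the limit of 5 CPM were AT1G19210 (6.10 ± 1.49), AT5G20260 (5.58 ± 2.35), AT5G52050 (5.12 ± 1.24) and 4 neighbours on chromosome 4. The neighbours were *EARLI1* (6.08 ± 1.42), AT4G12500 (5.64 ± 1.09), *AZI1* (5.48 ± 1.24) and AT4G12490 (5.0 ± 1.55). *EARLI1* and *AZI1* encode related lipid transfer-like proteins of cold and pathogen responses. These tandem genes are alike in sequence and may share reads, so their single levels are uncertain.

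Of the 28 touch, wound and jasmonate genes that passed the filter, 19 were displaced higher and 0 lower, and all 28 had a positive mean difference, from 0.75 to 8.19. The list median was 2.76 in wild type +Fe, 0.68 in wild type -Fe, 2.78 in *clf* +Fe and 1.5 in *clf* -Fe, higher in the iron sufficient library of either genotype. *ZAT10*, a zinc finger repressor gene of stress responses, stood at 84.1, 27.5, 314 and 148 CPM in the off-phase libraries and at 5.31 to 18.4 CPM in the other 8 (3.60 ± 1.57). *CML38*, a calmodulin-like gene induced by wounding and low oxygen, stood at 34.9, 5.91, 53.8 and 10.3 CPM against 0.368 to 1.96 CPM (4.13 ± 0.79). Both genes separated the sets without overlap. Not every member did so. In wild type -Fe the off-phase library was below the other 2 for *CML37* (difference -2.27), *TCH3* (-1.29) and *ZAT12* (-0.94), while the differences of these genes in wild type +Fe were 3.47, 1.37 and 2.80. In that group the other 2 libraries held 19.3 and 11.3 CPM of *CML37*, against 0.460 to 1.25 CPM in the other libraries of the iron sufficient groups.

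The 3 cold-induced *DREB1* genes, transcription factors of the cold response that are also gated by the clock, were displaced higher together. *DREB1C* had nearly the same level in each off-phase library, with 13.2, 11.6, 14.2 and 10.9 CPM against 0.184 to 0.701 CPM in the other 8 (4.73 ± 0.26). *DREB1B* stood at 6.03, 4.33, 6.3 and 2.26 CPM against at most 0.048 CPM, and *DREB1A* at 3.33, 5.18, 1.14 and 1.73 CPM against 0.180 to 0.691 CPM. *DREB2A*, a factor of the dehydration and heat responses, stood at 304, 87.9, 344 and 207 CPM against 15.9 to 26.6 CPM (3.32 ± 0.97). The list that holds these genes did not move as one. Of the 23 tested genes of dehydration, abscisic acid (ABA) and cold, 7 were displaced higher, namely the 4 *DREB* genes, *RD29A* (1.48 ± 0.90), *KIN1* (1.55 ± 0.63) and *NCED3*, a gene of ABA synthesis (1.66 ± 1.43), and 0 lower, and the list median was 0.38.

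In the heat shock, hypoxia and sugar starvation lists 1 of the 4 libraries had a median of the opposite sign to the other 3. The median of 12 heat shock genes was 2.05 in wild type +Fe, -0.33 in wild type -Fe, 1.46 in *clf* +Fe and 0.88 in *clf* -Fe, and only *MBF1C*, a coactivator gene of the heat response, was displaced (1.83 ± 0.99). *HSFA2*, a heat shock factor gene, differed by 5.61, -0.17, 3.44 and 1.67 in that order. The median of 15 hypoxia genes was -0.21, 0.71, 0.25 and 1.60, with 13 of the 15 mean differences positive and *HRE2*, *SRO5* and *PCO2* displaced higher. The median of 15 genes induced by sugar starvation was -0.18, 1.16, 0.83 and 0.88, with 12 of the 15 mean differences positive and *BZIP63* (1.18 ± 0.69) and the dormancy-associated genes *DRM1* (1.14 ± 0.74) and *DRM2* (1.73 ± 0.88) displaced higher. For *DIN10*, a raffinose synthase-like gene induced in the dark, the off-phase libraries stood at 515, 914, 2257 and 2454 CPM against 202 to 641 CPM in the other 8, and wild type +Fe was the single group in which the difference was negative (-0.26).

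**Figure D4:**
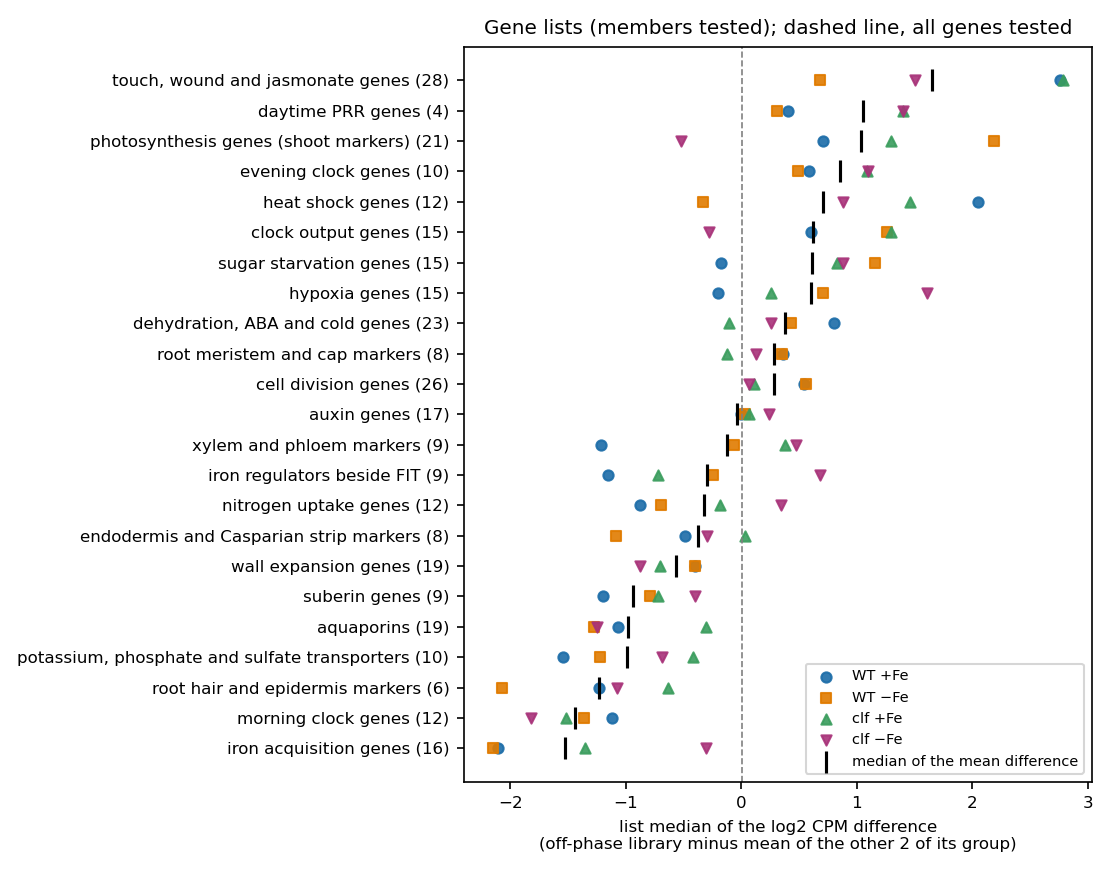
Median over the tested members of each gene list (y axis, number of members in brackets) of the log2 CPM difference of the off-phase library from the other 2 of its group (x axis), with a coloured symbol per group and a black bar for the median of the mean difference. Iron acquisition (-1.52) and morning clock genes (-1.44) lie lowest, and touch, wound and jasmonate genes (1.65) highest, while the median over all genes (dashed line) is 0.01.

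Many aquaporin and transporter genes were lower in the off-phase libraries, though not every list was lower in each group. Of 19 aquaporins, the water channels of the plasma membrane (PIP) and the vacuole (TIP), 8 were displaced lower and 0 higher, and the list median was -1.07, -1.28, -0.31 and -1.25 in wild type +Fe, wild type -Fe, *clf* +Fe and *clf* -Fe. *PIP2;4*, a root-specific aquaporin, stood at 35.0, 8.91, 121 and 23.5 CPM in the off-phase libraries, and the other 2 libraries held 152 and 150, 67.4 and 58.6, 207 and 213, and 147 and 127 CPM (-2.06 ± 0.89). *TIP2;2* differed by -1.90 ± 1.03, *TIP2;3* by -1.73 ± 1.25 and *PIP2;3* by -1.48 ± 0.96. The off-phase library of *clf* +Fe differed least for each of these 4 genes, by -0.79, -0.42, -0.08 and -0.38. *PIP2;2* and *PIP2;3* are near-identical neighbours, so reads may have been divided between them.

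Of 10 transporters of potassium, phosphate and sulfate, 5 were displaced lower and 0 higher. *HAK5*, the high-affinity potassium uptake gene, stood at 0, 0.0405, 0.319 and 0.121 CPM in the off-phase libraries and at 0.432 to 2.48 CPM in the other 8, so that these levels rest on few reads. *SKOR*, a channel that releases potassium into the xylem, differed by -1.71 ± 0.70. *PHT1;1* and *PHT1;2*, neighbouring phosphate transporter genes that may share reads, differed by -1.26 ± 0.83 and -1.78 ± 0.70, and *SULTR1;2*, the main sulfate uptake gene, by -1.01 ± 0.84. Of 12 nitrogen uptake genes, 3 were displaced lower, namely the ammonium transporter genes *AMT1;3* (-1.61 ± 0.86) and *AMT1;2* (-1.42 ± 0.74) and the nitrate transporter and sensor gene *NPF6.3* (-1.33 ± 0.65). The other 9 were not displaced, 4 of the 12 had a positive mean difference, up to 0.82 for *NPF7.2*, a nitrate transporter gene, and the list median was -0.87, -0.69, -0.19 and 0.34 in the order of the groups. Their overall median of -0.32 was -0.016 when replicate 1 of wild type +Fe was left out. *AMT1;3* stood at 67.8, 63.0, 106 and 164 CPM in the off-phase libraries and at 218 to 359 CPM in the other 8, without overlap.

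Growth genes divided by process. None of the 26 cell division genes was displaced, and although 24 of them had a positive mean difference the largest was 0.61 (*CDC20.1*). Their median was 0.54 and 0.56 in the wild type libraries and 0.11 and 0.06 in those of *clf*. None of 17 auxin genes was displaced either, with a list median of -0.04 that took the opposite sign under some settings. Of 19 wall expansion genes, 6 were displaced lower and 2 higher. *EXPA7* and *EXPA18*, expansin genes of root hairs, differed by -1.95 ± 1.39 and -2.38 ± 0.96, and *XTH17*, a wall-modifying enzyme gene, by -3.27 ± 1.09. Its family members *XTH18*, *XTH19* and *XTH33* were also displaced lower. The wall genes displaced higher were *XTH22*, known as a gene induced by touch (3.17 ± 1.26), and *XTH20* (1.22 ± 0.39).

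Root hair markers were lower in the off-phase libraries. *COBL9*, a gene needed for root hair growth, stood at 7.97, 3.64, 17.8 and 9.23 CPM in the off-phase libraries and at 27.3 to 48.8 CPM in the other 8 (-2.06 ± 0.80), and *RHD2*, the NADPH oxidase gene of growing root hairs, at 32.2, 24.3, 38.9 and 53.7 CPM against 60.2 to 141 CPM (-1.39 ± 0.59). *PRP3*, a wall protein gene of root hairs, differed by -2.52 ± 1.18, and these 3 of the 6 listed markers were displaced. *GL2* and *WER*, which specify the cells that bear no hair, had differences of -0.05 ± 0.24 and 0.08 ± 0.78. The summed level of the 6 markers was 60.9 to 119 CPM in the off-phase libraries and 145 to 352 CPM in the other 8. In RNA of whole roots, fewer cells of a type and less RNA per cell cannot be told apart.

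The list median of the mean difference was -1.23 for root hair and epidermis markers and smaller in size for the other root tissues. This order did not hold in each library. The suberin median was -1.19 in wild type +Fe, -0.79 in wild type -Fe, -0.72 in *clf* +Fe and -0.40 in *clf* -Fe. Root hair and epidermis markers had medians of -1.23, -2.07, -0.64 and -1.08 in that order. Of 9 suberin genes, whose product seals the endodermis, 9 had a negative mean difference. Among them 2 were displaced lower (*ASFT*, -1.23 ± 0.69, and *CYP86B1*, -1.02 ± 0.31). The summed level of the 9 genes was 254 to 321 CPM against 361 to 607 CPM. Of 8 endodermis and Casparian strip markers only *CASP1* was displaced (-1.01 ± 0.86), and the sums were 212 to 355 and 328 to 564 CPM. None of 9 xylem and phloem markers was displaced, and their sums overlapped fully (150 to 395 and 196 to 362 CPM). The groups disagreed, with list medians of -1.21 in wild type +Fe, -0.06 in wild type -Fe, 0.38 in *clf* +Fe and 0.47 in *clf* -Fe. None of 8 meristem and root cap markers was displaced (61.2 to 89.9 and 55.2 to 69.6 CPM).

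The summed level of 21 photosynthesis genes, listed as markers of green shoot tissue, was also taken in each library. It was 1205, 615, 1725 and 282 CPM in the off-phase libraries of wild type +Fe, wild type -Fe, *clf* +Fe and *clf* -Fe, and 747 and 720, 123 and 170, 639 and 820, and 281 and 519 CPM in the other 2 libraries of those groups. The off-phase library was thus above both others in 3 groups but not in *clf* -Fe, and *LHCB1.3*, a light-harvesting gene of the list, stood at 290, 142, 455 and 43.1 CPM in the off-phase libraries. None of the 21 genes was displaced, and in each of 3 libraries 1 of them had no read. Of the 21 genes 10 were lower under iron deficiency by the test described below, as were 5.6% of all genes. The part of shoot tissue in the other differences was not tested.

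The genes displaced lower with the largest differences include members of these groups and others with less known roles. AT4G33720 stood at 2.07, 0.364, 0.182 and 2.70 CPM in the off-phase libraries and at 6.23 to 154 CPM in the other 8 (-5.30 ± 2.4). AT5G38910 differed by -4.42 ± 2.06, *LHY* came next, and AT2G29220 (-3.72 ± 2.08), AT3G05950 (-3.65 ± 1.34), AT2G43590 (-3.25 ± 1.08), AT3G18450 (-3.23 ± 1.56) and AT4G08410 (-3.21 ± 0.88) are further genes that the annotation names by identifier only. *SAG13*, a gene induced in senescence, differed by -3.41 ± 1.47, *CYP705A12*, a cytochrome P450 gene, by -3.17 ± 0.39, and *EXT13*, an extensin gene of the cell wall, by -3.16 ± 0.74. *CYP705A12* had the smallest spread of these, with differences of -3.20, -3.32, -2.63 and -3.55.

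**Figure D5:**
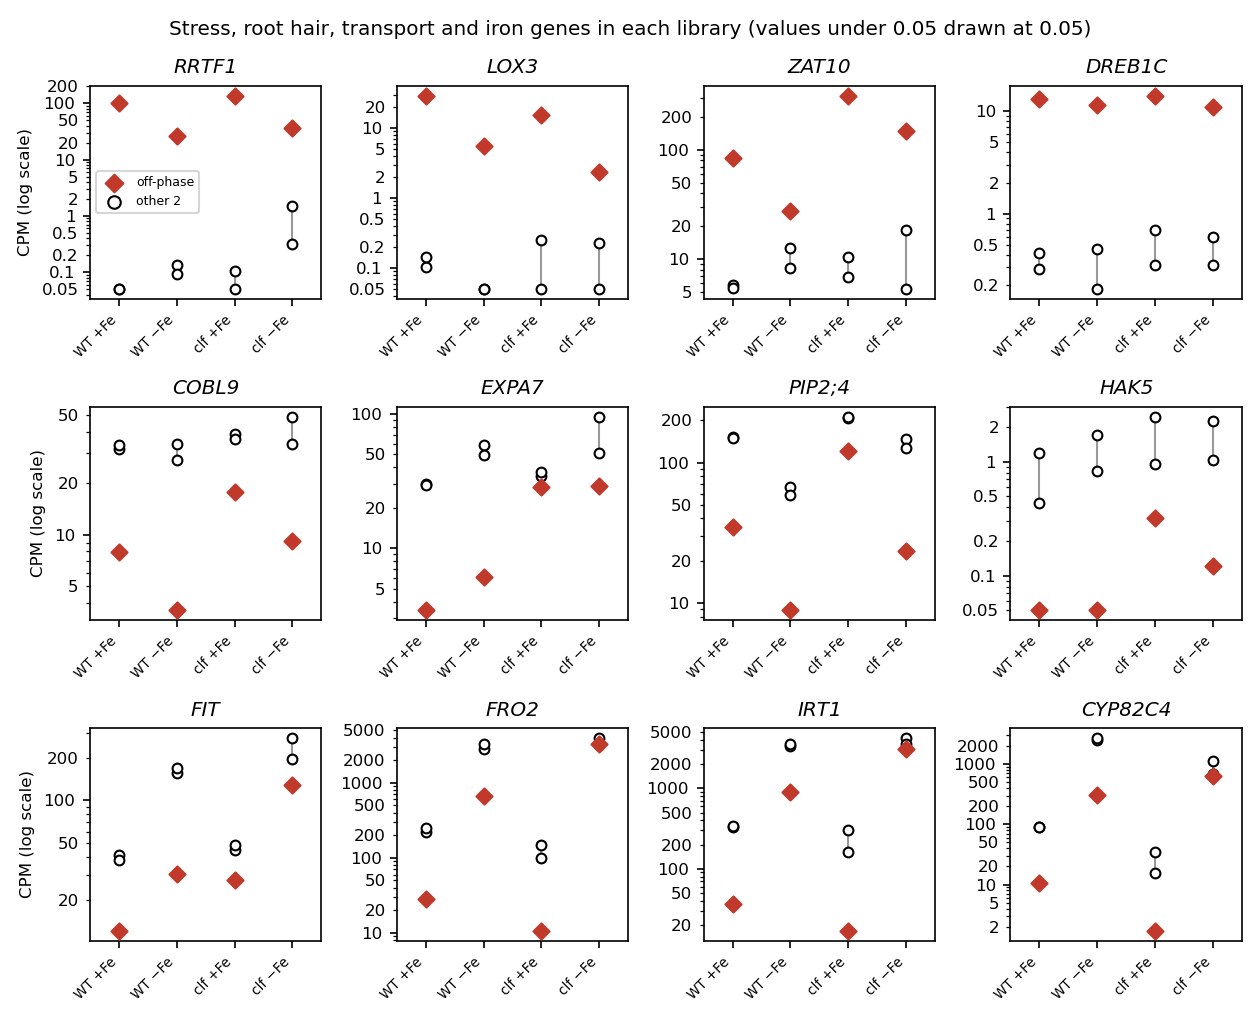
CPM (y axis, log scale, values under 0.05 drawn at 0.05) of 12 genes for stress, root hairs, transport and iron uptake in each library by group (x axis), with the off-phase library as a red diamond and the other 2 of the group as open circles joined by a line. *RRTF1*, *LOX3*, *ZAT10* and *DREB1C* are higher and *COBL9* and *HAK5* lower in all off-phase libraries than in the other 8, while *FRO2* reaches the level of the other 2 in *clf* -Fe alone.

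The iron acquisition genes, among them *FIT* and genes that the FIT transcription factor is known to activate under iron deficiency, were lower in the off-phase libraries and unequally so. All 16 had a negative mean difference, 8 were displaced lower and 0 higher, and the list median was -2.11 in wild type +Fe, -2.15 in wild type -Fe, -1.35 in *clf* +Fe and -0.30 in *clf* -Fe. *FIT* stood at 12.0, 30.1, 27.5 and 128 CPM in the off-phase libraries, and at 40.9 and 38.2, 156 and 168, 44.6 and 48.3, and 276 and 197 CPM in the other libraries of those groups (-1.44 ± 0.78). *IRT1*, which encodes the transporter that takes up ferrous iron, stood at 36.0, 899, 16.8 and 3047 CPM, and the others at 332 and 339, 3411 and 3567, 162 and 303, and 4271 and 3513 CPM (-2.31 ± 1.5). *FRO2*, the ferric reductase gene, had 28.4, 677, 10.6 and 3239 CPM in the off-phase libraries. It was not displaced, because in *clf* -Fe this value lies between those of the other 2 libraries, 3994 and 3237 CPM, while it was 224 and 250, 2860.1 and 3273, and 98.2 and 147 CPM in the other libraries of the remaining groups.

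For AT3G12900 and *CYP82C4* the difference was also smallest in *clf* -Fe. The differences of AT3G12900 were -3.50, -2.59 and -4.83 in wild type +Fe, wild type -Fe and *clf* +Fe but -0.54 in *clf* -Fe, and those of *CYP82C4*, a P450 gene of coumarin synthesis, -3.06, -3.11, -3.71 and -0.44. *MTP3*, *HMA3* and *AHA7*, which encode 2 vacuolar metal transporters and a proton pump, differed by -2.04 ± 1.08, -1.87 ± 1.00 and -1.99 ± 0.97. *MYB10*, a transcription factor gene of iron deficiency, was an exception and differed by nearly the same amount in each group (-1.39 ± 0.16).

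Of the 9 genes listed as iron regulators beside *FIT*, 8 had a negative mean difference, but none was displaced. This list also holds *FRO3*, *NAS4* and *OPT3*, which encode a ferric reductase, a nicotianamine synthase and a transporter. The list median was -1.16, -0.25, -0.72 and 0.68 in the same order of groups, so that *clf* -Fe differed in sign from the other groups. *BHLH38*, a bHLH gene induced by iron deficiency, had the largest mean difference, with -3.02, -0.34, -2.42 and 0.08 in that order. In *clf* -Fe the off-phase library held 226 CPM of *BHLH100* against 140 and 121 CPM, 974 CPM of *BTS*, an E3 ligase gene, against 524 and 398 CPM, and 1699 CPM of *OPT3*, an iron transporter gene of the phloem, against 1003 and 816 CPM. In wild type -Fe the same genes stood at 146, 531 and 1172 CPM in the off-phase library, close to the 176 and 165, 607 and 619, and 1283 and 1087 CPM of the others.

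These values enter the group means under iron deficiency. With all 3 libraries, the mean of *clf* -Fe over that of wild type -Fe was 1.70 for *FIT*, 1.54 for *FRO2* and 1.37 for *IRT1*, and with the 2 libraries of each group that are not off-phase it was 1.46, 1.18 and 1.12. Over the 16 iron acquisition genes the ratio was above 1 for 14 with a median of 1.40, and without the off-phase libraries it was above 1 for 11 with a median of 1.15. Over the 9 genes listed as regulators beside *FIT* it was above 1 for 2 with a median of 0.993. Without the off-phase libraries it was above 1 for 0 of them, with a median of 0.767. *CYP82C4* was the lowest of the 16 in either case, at 0.443 and 0.345. These ratios compare the genotypes on -Fe medium only and are given without a test. Fold induction by iron deficiency also depends on the +Fe means. Without the off-phase libraries, the +Fe means of *FIT*, *FRO2* and *IRT1* were 39.6, 237 and 335 CPM for wild type. The *clf* means were 46.4, 123 and 233 CPM. *FRO2* and *IRT1* were thus lower in *clf* on +Fe and higher on -Fe medium, so their induction remained larger in *clf*. This was not tested.

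Iron and genotype were not used to choose the libraries, as 1 came from each group, so these contrasts could be tested. Iron deficiency, averaged over the genotypes, changed 2301 of 20168 genes (11.4%), 1171 higher (5.81%) and 1130 lower (5.6%), and *clf* differed from wild type in 87 genes (0.431%), 66 higher (0.327%) and 21 lower (0.104%), by edgeR's quasi-likelihood test at an adjusted p of 0.05 on the 12 libraries. Of the 41 clock genes 3 were called for iron, all lower under iron deficiency. These were *RVE7* (log2 fold change -0.85, SE 0.16, adjusted p = 0.0067), *CHE* (-0.83, SE 0.16, adjusted p = 0.0086) and *PIF5* (-1.94, SE 0.45, adjusted p = 0.019), and 8 passed an unadjusted p of 0.05. None of the 3 was displaced in the off-phase libraries, though a displaced gene is harder to call because of its wide spread within groups. For genotype 0 clock genes were called by edgeR and 3 passed an unadjusted p of 0.05, while DESeq2 called 1. *LHY* had a log2 fold change for iron of 0.50 (SE 0.93, adjusted p = 0.78), which leaves a wide interval. Of the iron acquisition genes 15 of 16 and of the genes listed as regulators beside *FIT* 9 of 9 were called higher under iron deficiency.

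The genes displaced lower and the genes raised by iron deficiency shared 73 members, which is 9.73% of the former and 6.23% of the latter, while 5.81% of all genes were raised. In the other direction, the genes displaced higher and the genes lowered by iron deficiency shared 7 members. These were 1.41% of the former, while 5.6% of all genes were lowered. Of the 1248 displaced genes 2 (0.16%) were called for genotype, against 0.431% of all genes. By its definition a displaced gene has a wide spread within groups and is harder to call. These shares therefore cannot show whether displacement is related to the iron or genotype calls. The off-phase libraries lie within these tests and widen the spread that they use. With a term for the 4 libraries in the model, iron deficiency called 4529 genes and genotype 494, and 9 and 1 of the clock genes. The 8 other libraries alone called 6894 and 1538 genes, and 15 and 4 clock genes. Since the 4 are by choice the least correlated of their groups, leaving them out narrows the spread by construction, so the p-values of those fits leave out part of the variation between replicates. Leaving out 1 library at a time gave 1401 to 3079 genes called for iron. The count was 1422 without replicate 2 and 1455 without replicate 3 of wild type -Fe. It was 1401 without replicate 2 of *clf* -Fe, and none of these is an off-phase library. Without the off-phase library it was 3079 for wild type -Fe, 2484 for wild type +Fe, 2116 for *clf* -Fe and 1820 for *clf* +Fe. The difference between the iron responses of the genotypes, tested for the 343 named and listed genes with adjustment over all genes, was called for 0 of them by edgeR, and 10 passed an unadjusted p of 0.05.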

How the data were processed

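Root RNA of 12 libraries, made with a kit that keeps the strand, was analysed. The authors aligned paired reads to TAIR10 (TopHat2 is listed in the submitters' processing notes, version not given) and deposited a table of raw counts that HTSeq had assigned to genes in its union mode. They also deposited FPKM values, which are counts divided by gene length and library size. The sources used here do not say whether counting used the strand, so overlapping genes are uncertain.

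Counts were normalized by TMM in edgeR 4.0.16 (R 4.3.3) and filtered with filterByExpr, which kept 20168 of 32678 genes. Differences used log2 CPM with a prior count of 2. Iron and genotype were tested with edgeR's quasi-likelihood test on all 12 libraries in a model of 4 groups, at a Benjamini-Hochberg adjusted p of 0.05. The procedure was tested on simulated data. DESeq2 1.42.0 and limma 3.58.1 (on log2 FPKM with a pseudocount of 1 or 0.1), other filters, RLE factors, the replicate number as a block and each library left out were alternatives.

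The libraries, the gene lists and the rules were chosen with earlier results of these data known. Genes named by rule are all clock genes, the 12 highest and 12 lowest displaced genes of at least 5 CPM, the 4 largest differences of each list, and *FIT*, *FRO2* and *IRT1*. Other genes were named after their values were seen. Gene names (31912 identifiers) and promoters came from RefSeq TAIR10.1.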

Additional observations from a re-analysis of the deposited data

Results flagged for a closer look

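The 9 genes listed as iron regulators beside *FIT* had opposite list medians in the off-phase libraries of different groups. The median difference from the other 2 libraries was -1.16 in wild type +Fe, -0.25 in wild type -Fe and -0.72 in *clf* +Fe, and 0.68 in *clf* -Fe. The difference between the groups was not tested.

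The 21 photosynthesis genes did likewise. Their median difference was 0.71 in wild type +Fe, 2.19 in wild type -Fe and 1.29 in *clf* +Fe, and -0.53 in *clf* -Fe. This difference was not tested either, since each group holds 1 off-phase library.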

How the results depend on the processing

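The number of genes displaced higher was 760 with no filter on low counts and 296 with at least 10 reads in every library, and the number displaced lower was 377 on log2(FPKM + 1). The median of the auxin genes changed sign, to 0.16 with at least 10 reads in every library, 0.067 on log2(FPKM + 0.1) and 0.052 on log2(FPKM + 1). With DESeq2, 417 genes were called for genotype, and 5 and 1 clock genes for iron and genotype. With at least 10 reads in every library 40 genes were called for genotype. A term for the 4 libraries gave 4529 and 494 genes and 9 and 1 clock genes for iron and genotype, and the 8 other libraries gave 6894, 1538, 15 and 4. The cause of these changes was not tested, apart from the fewer genes and libraries that some settings hold by construction. Of the values under alternatives other than leaving out 1 library, 197 moved by less than their spread or the margin set for counts.

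With each library left out in turn, 579 to 779 genes were displaced higher and 719 to 1025 lower, against 498 and 750 with all libraries. Fewer comparisons had to agree in these settings, but the lower count still fell to 719 without replicate 1 of wild type -Fe. The auxin median ranged from -0.17 to 0.11, positive when replicate 1 of wild type +Fe (0.097), replicate 1 (0.11) or 2 (0.062) of wild type -Fe or replicate 3 of *clf* -Fe (0.016) was left out. Genes called ranged from 1401 to 3079 for iron and from 47 to 106 for genotype, and clock genes called for iron from 2 to 5.

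Replicate numbers were not taken to pair the samples, since the labels do not say which libraries were harvested together. The deviations of same-numbered libraries correlated at 0.616, 0.440 and 0.463 between the wild type groups. They correlated at 0.338, 0.275 and 0.150 between wild type +Fe and *clf* -Fe and at 0.448, 0.541 and 0.165 between wild type -Fe and *clf* -Fe. Between wild type +Fe and *clf* +Fe the values were -0.386, -0.398 and 0.344. The numbers 1 and 2 of *clf* +Fe correlated negatively with those of every other group. The off-phase library is replicate 2 in *clf* +Fe and replicate 1 in the other groups. Its differences enter these values, so they cannot decide whether the numbers pair the samples. With the replicate number as a block, 2324 genes were called for iron and 92 for genotype, and 3 and 0 clock genes.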
